A study of Mus musculus with 35 samples.

Results

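The chromatin of 10 genes that characterise Müller glia was followed from the newborn to the mature mouse retina. The genes were given as a list of names, and all 10 were among the 16019 protein-coding genes whose starts could be placed on the peak lists. Rlbp1, Glul, Slc1a3, Aqp4 and Kcnj10 encode the retinoid carrier, the enzyme, the glutamate transporter, the water channel and the potassium channel of the mature glial cell. Apoe encodes a lipid carrier, Vim an intermediate filament, Dkk3 a secreted glycoprotein of the Dickkopf family, and Sox9 and Nfia are transcription factors that act in gliogenesis.

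Müller glia are the radial glia of the retina and span its whole depth. They are born last, from the same multipotent progenitor cells that give rise to the retinal neurons, and several of their genes are already used by those progenitor cells. They clear glutamate and convert it to glutamine, buffer potassium and water, and return retinoids to the cones. Brg1 is the motor of SWI/SNF complexes, which use ATP to move nucleosomes. H3K4me3 marks the starts of genes in use, H3K27Ac marks active starts and enhancers, and H3K27me3 is laid down by Polycomb complexes over silent genes.

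The study examined how Brg1 and histone modifications are arranged during retinal development and after loss of Brg1, by ChIP-Seq of whole retinae. Peaks or islands of 27 libraries were used. Brg1 was measured in 1 library at P0, from knock-in mice whose Brg1 carries a FLAG tag (Brg1-FLAG). In wild-type retinae of P0, P14 and P21, H3K27Ac, H3K4me3 and H3K27me3 were measured in 2 libraries per mark and stage. At P12 there was 1 wild-type and 2 Brg1-deficient libraries for H3K27Ac, 1 of each genotype for H3K4me3, and 2 wild-type and 1 Brg1-deficient libraries for H3K27me3, the last with a different antibody from the other stages. The Brg1-deficient genotype is given in the labels as BRG1 -/-. It was made with floxed Brg1 and a Chx10-Cre transgene, which is active in retinal progenitor cells in a mosaic of stripes, so that these retinae keep some cells with Brg1. Animals whose eyes were small were chosen for these libraries where possible. Strain and sex were not stated in the labels, and nothing in them says that replicates came from separate litters.

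Values are peak heights, that is, the fold enrichment that the authors gave for the summit of each peak. A height of 0 means that a library had no called peak there. A peak was counted at a start when it lay within 2 kb of it. For H3K4me3 the wild-type libraries were alike in size, with 18534 to 24124 peaks. The H3K27Ac libraries were not. Replicate 1 held 17588, 17433 and 18718 peaks at P0, P14 and P21, and replicate 2 held 29304, 50005 and 45833, so a member at 0 in replicate 1 of P14 or P21 may have a peak in replicate 2. Numbers of reads are unknown from these lists, and depth limits which weak peaks were called.

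The labelled tissue was checked with markers. All 6 rod genes that could be placed had H3K4me3 and H3K27Ac peaks in both P14 and both P21 libraries. Of 5 listed markers each, 2 of the pigment epithelium and 2 of microglia could be placed, and these had no peak of either mark in any library. Of 3 placed endothelial markers, 1 had an H3K4me3 peak in every library, with heights between 2.77 and 14.95. For H3K27Ac 1 endothelial marker had a peak in replicate 2 of P0 and in both Brg1-deficient P12 libraries. Rlbp1, Glul and the other members are used by Müller glia but several are also used by astrocytes, which enter the retina along the optic nerve, and by progenitor cells. Of 5 astrocyte genes, at most 1 had an H3K27Ac peak in any library and between 1 and 2 had an H3K4me3 peak.

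The sequences just upstream of 4 members show how different their starts are. They are the 250 bases before the start in RefSeq (GRCm38.p6), read 5′ to 3′ on the strand of the gene, with each CG dinucleotide in capitals. Rlbp1 lies at chr7:79387028-79387277 (minus strand), Vim at chr2:13574061-13574310 (plus), Glul at chr1:153899679-153899928 (plus) and Slc1a3 at chr15:8710808-8711057 (minus). Rlbp1 and Vim were chosen for the H3K27me3 that appeared over their starts, and Glul and Slc1a3 because they stayed free of it.
Rlbp1: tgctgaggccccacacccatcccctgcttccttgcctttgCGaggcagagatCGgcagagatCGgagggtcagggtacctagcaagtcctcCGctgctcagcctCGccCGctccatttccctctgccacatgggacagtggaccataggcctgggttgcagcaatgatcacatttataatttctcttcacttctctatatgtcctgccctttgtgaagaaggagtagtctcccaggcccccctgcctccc
Vim: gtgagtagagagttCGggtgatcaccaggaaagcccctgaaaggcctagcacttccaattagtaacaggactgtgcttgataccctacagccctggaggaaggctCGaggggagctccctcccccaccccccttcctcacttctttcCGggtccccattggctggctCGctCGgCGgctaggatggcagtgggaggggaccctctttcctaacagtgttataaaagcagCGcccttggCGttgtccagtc
Glul: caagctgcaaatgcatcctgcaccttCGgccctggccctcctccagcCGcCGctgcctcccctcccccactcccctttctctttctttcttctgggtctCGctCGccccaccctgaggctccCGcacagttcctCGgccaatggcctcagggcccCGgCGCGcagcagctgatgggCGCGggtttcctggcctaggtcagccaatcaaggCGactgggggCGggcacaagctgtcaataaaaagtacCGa
Slc1a3: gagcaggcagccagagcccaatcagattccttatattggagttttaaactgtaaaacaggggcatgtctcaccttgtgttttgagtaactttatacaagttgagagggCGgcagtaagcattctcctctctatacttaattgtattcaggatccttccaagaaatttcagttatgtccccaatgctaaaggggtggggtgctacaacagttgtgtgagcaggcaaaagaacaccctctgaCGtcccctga
Of 32851 promoters in that table, 27.3% had at least the 15 CG dinucleotides of Glul and 29.0% had no more than the 2 of Slc1a3. The 6 of Rlbp1 equal the median of all promoters, and Vim had 8. Of the 3 other members with a sequence, Kcnj10 had 17, Apoe had 8 and Nfia had 1. Sequences of 7 of the 10 members were matched.

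At P0 nearly all members carried open chromatin marks at their starts. Brg1 was found at 9 of 10 members, against 54.5% of all placed starts. H3K4me3 was found at 8 members in both P0 libraries, where 62.8% and 63.3% of all starts had a peak. H3K27Ac was found at 8 members in replicate 1 and 9 in replicate 2, against 50.1% and 56.7% of all starts. The start of Aqp4 had none of the 3 in any library, and its nearest P0 H3K4me3 peak lay 97.8 kb away. Both active marks were present in both P0 libraries at 7 members, the exceptions being Aqp4, Rlbp1, which had H3K27Ac without H3K4me3, and Kcnj10, which lacked H3K27Ac in replicate 1.

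Heights of Brg1 at the start ranged from 4.78 at Vim to 10.2 at Glul. Sox9 (8.0), Dkk3 (7.91) and Rlbp1 (7.21) followed Glul, then Apoe (7.03), Nfia (7.03), Kcnj10 (6.94) and Slc1a3 (5.77). Their median was 7.03, where the median over all starts with a Brg1 peak was 5.86. With 1 Brg1 library these heights have no replicate error and neighbours in this order were not tested.

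H3K4me3 fell at the starts of the transcription factor genes Nfia and Sox9 at both later stages, at Apoe at P14, and at Vim and Dkk3 at P21. The placed start of Nfia showed the deepest loss. A cluster of peaks deeper in that gene, described below, was not examined for H3K4me3 after P0. The placed start had heights of 19.0 and 31.9 at P0, 0 and 4.45 at P14 and 3.84 and 0 at P21, and the P12 wild-type library stood at 5.66. All later values lay below both P0 values. On log2 heights scaled between libraries the change was -1.72 at P14 (SE 0.26, adjusted p = 0.00107, limma with Benjamini-Hochberg adjustment over 10161 starts) and -1.88 at P21 (SE 0.26, adjusted p = 0.000383).

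Sox9, which marks progenitor cells as well as glia, had heights of 47.3 and 46.3 at P0, 30.5 at P12, 13.8 and 15.8 at P14 and 21 and 11.4 at P21. Neither later stage overlapped P0, and the log2 change was -1.17 at P14 (SE 0.28, limma adjusted p = 0.0243) and -1.24 at P21 (SE 0.28, limma adjusted p = 0.0103). At Vim the heights were 33.8 and 37.5 at P0, 24.4 at P12, 16.3 and 13.0 at P14 and 17.9 and 7.95 at P21. Again both later stages lay below P0. Vim passed the test at P21 (-1.15, SE 0.27, limma adjusted p = 0.0136) and not at P14 (-0.85, SE 0.27, limma adjusted p = 0.106).

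Dkk3 had the widest spread at P0, with 19.2 and 62.0. Its later heights were 11.7 at P12, 11.5 and 8.45 at P14 and 12.4 and 6.09 at P21, all below the lower of the P0 values. The log2 change was -1.40 at P21 (SE 0.36, limma adjusted p = 0.0197), and at P14 it was -1.20 (SE 0.36, limma adjusted p = 0.0726). Apoe was low throughout, with 17.2 and 19.1 at P0, 7.02 at P12, 5.81 and 4.22 at P14 and 9.82 and 6.05 at P21. It passed the test at P14 (-0.96, SE 0.24, limma adjusted p = 0.0289) and not at P21 (-0.74, SE 0.24, limma adjusted p = 0.0658).

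Glul kept tall H3K4me3 peaks. Its heights were 62.9 and 43.9 at P0, 50.4 at P12, 39.3 and 56.4 at P14 and 63.5 and 21.2 at P21. As deposited, the stages overlapped, and the scaled log2 change was 0.00 at P14 (SE 0.29, limma adjusted p = 0.996) and -0.46 at P21 (SE 0.29, limma adjusted p = 0.460). Slc1a3 had 41.9 and 55.9 at P0, 38.6 at P12, 25.0 and 26.3 at P14 and 26.6 and 19.3 at P21. The later values lay below P0 without passing the test at P14 (-0.62, SE 0.31, limma adjusted p = 0.360) or P21 (-0.88, SE 0.31, limma adjusted p = 0.0934). Kcnj10 had 24.8 and 46.1 at P0, 33.0 at P12, 15.7 and 28.3 at P14 and 26.7 and 14.9 at P21. The stages overlapped, and its log2 changes of -0.41 and -0.60 (SE 0.33 for both) did not pass (limma adjusted p = 0.634 and 0.359).

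**Figure D1:**
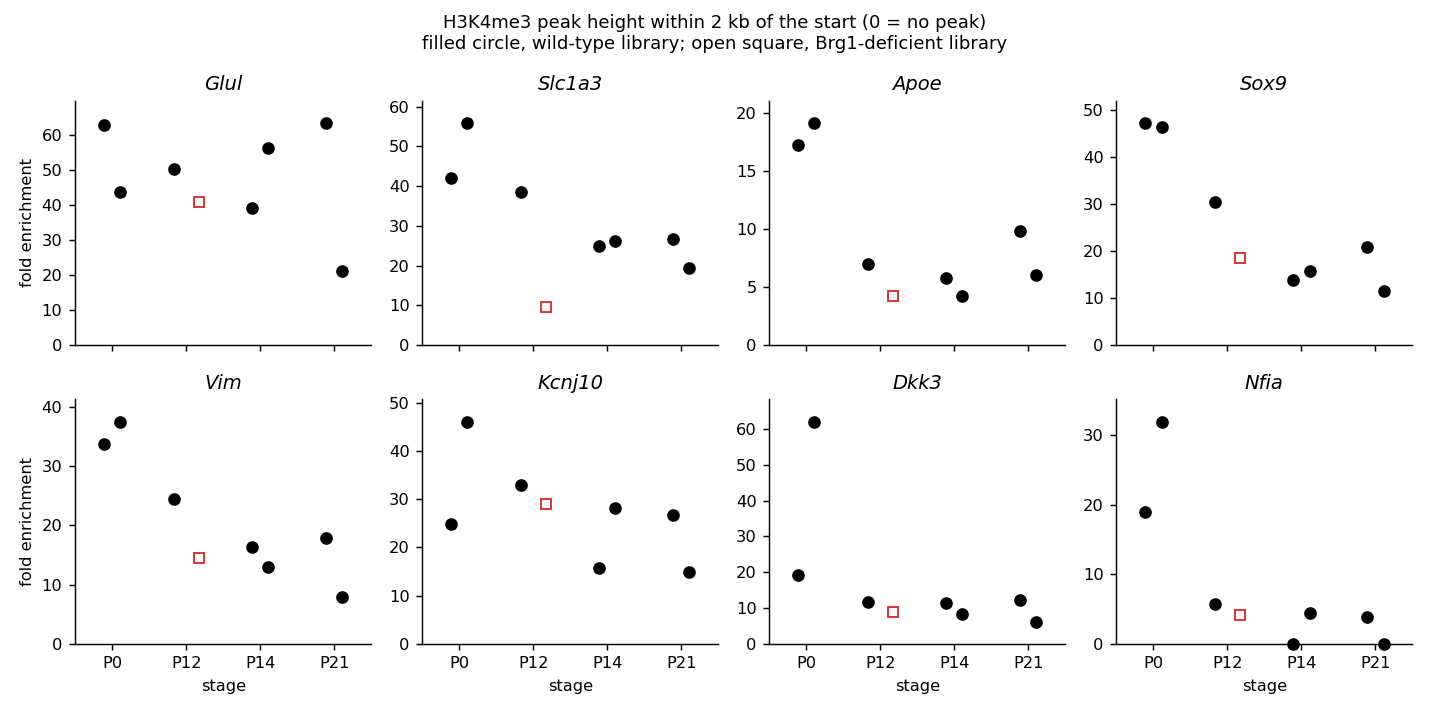
Heights of the H3K4me3 peak at the starts of 8 members (vertical axis, fold enrichment from 0, own scale per gene) at P0, P12, P14 and P21. Filled circles are single wild-type libraries and open squares the Brg1-deficient P12 library. Circles of P14 and P21 lie below both P0 circles at Slc1a3, Apoe, Sox9, Vim, Dkk3 and Nfia, and Glul overlaps. Rlbp1 (a peak of 4.65 in 1 P21 library alone) and Aqp4 (no peak) are left out.

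Of the 8 members tested, 3 fell from P0 to P14, where 3.94% of all starts fell and 4.90% changed in either direction. At P21, 4 of the 8 fell, where 8.31% of all starts fell and 9.41% changed in either direction. None rose at either stage, where 0.964% and 1.1% of all starts rose. On scaled heights both later libraries lay below both P0 libraries at 6 members for P14 (25.3% of all starts tested) and at all 8 tested for P21 (31.1%). The median log2 change of the tested members was -0.90 at P14 and -1.01 at P21, beside -0.03 and -0.08 over all starts. Rlbp1 and Aqp4 did not enter the test, since fewer than 2 libraries had a peak. The 8 that entered all had peaks in both P0 libraries, so each could have entered through P0 alone. From P14 to P21 no member passed the test or had an unadjusted p under 0.05, and 0.00984% of all starts (1 start, which rose) passed.

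Nfia passed at P21 under every alternative in which it was tested. It did not enter the alternative that needed a peak in every library. Sox9 and Apoe at P14 no longer passed when any 1 of the P0 or P14 libraries was left out (limma adjusted p from 0.0823 to 0.151 for Sox9 and from 0.121 to 0.315 for Apoe). Without replicate 2 of P0 the P21 fall of Dkk3 was -0.74 (limma adjusted p = 0.369), and without replicate 1 of P21 only Nfia passed. In whole retinae a smaller share of cells with a mark and less of the mark in each cell cannot be told apart.

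The H3K4me3 domains of 5 members were broad at P0. The peak at the start was 5442 and 5762 bp long at Dkk3, 4509 and 5611 bp at Nfia, 4656 and 5261 bp at Sox9, 4471 and 4578 bp at Glul, and 3287 and 3803 bp at Vim. These 5 members exceeded 3000 bp in both P0 libraries, as did 6.84% and 10.2% of all starts with a peak. The other 3 were narrower, with 2254 and 2494 bp at Slc1a3, 1668 and 1586 bp at Kcnj10 and 1508 and 1582 bp at Apoe. At P14 no member did, and at P21 Glul did in 1 library (3129 bp). The narrowing was deepest at Nfia, whose only peaks at the placed start at P14 and P21 spanned 361 and 284 bp. Sox9 and Glul kept peaks of 1907 to 3129 bp. The median over members with a peak went from 3879 and 4190 bp at P0 to 1397 and 1654 bp at P14 and 1442 and 1321 bp at P21. The corresponding medians of all starts with a peak were 1668 and 1819 bp, 1513 and 1645 bp, and 1930 and 1580 bp.

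H3K27Ac at the starts was weak and uneven between replicates after P0. Glul, which encodes glutamine synthetase, was the only member with a peak in every wild-type library. It had heights of 17.5 and 13.4 at P0, 7.85 at P12, 6.60 and 15.0 at P14 and 5.78 and 8.34 at P21. As deposited, 1 P14 library reached the P0 range and the other values lay below it. Slc1a3 had 7.52 and 10.9 at P0 and 6.43 at P12, and then peaks in replicate 2 alone (5.43 at P14 and 5.22 at P21). Apoe, Vim and Dkk3 likewise had peaks in both P0 libraries and, at P14 and P21, in replicate 2 alone.

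Sox9 and Nfia had peaks in both P0 libraries (4.80 and 9.41 at Sox9, 5.20 and 9.43 at Nfia), in 1 P14 library (3.46 and 3.91) and in no P21 library. Rlbp1, which carries retinoids in the mature glial cell, had P0 heights of 4.60 and 6.82 and no peak in any of the 7 later libraries, Brg1-deficient ones included. Kcnj10 had a peak in replicate 2 of P0, P14 and P21 (8.23, 5.78 and 4.13) and none in replicate 1, so its stages overlapped.

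**Figure D2:**
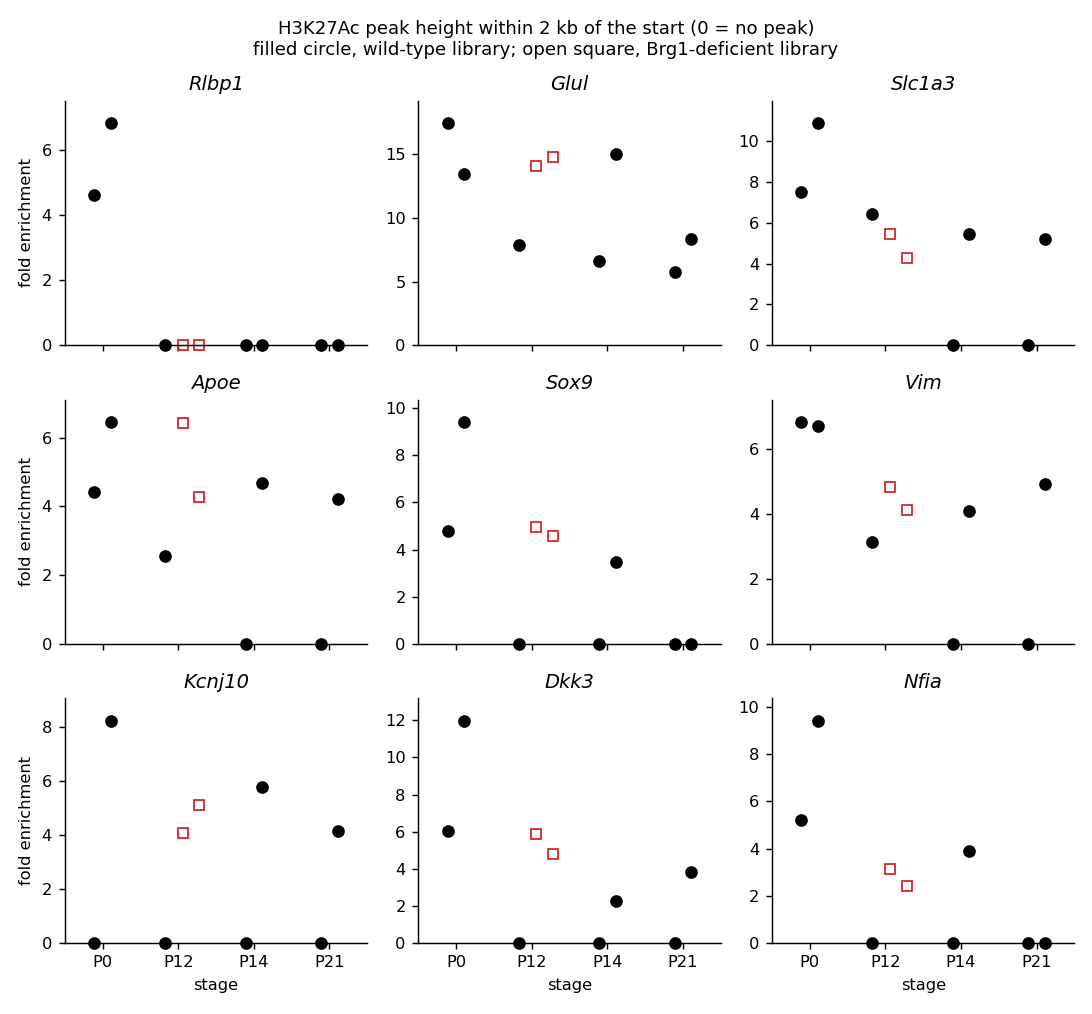
Heights of the H3K27Ac peak at the starts of 9 members (vertical axis, fold enrichment from 0, own scale per gene) by stage. Filled circles are single wild-type libraries and open squares the 2 Brg1-deficient P12 libraries, and a symbol at 0 means no peak. Glul alone is above 0 in every library, and Rlbp1 is above 0 at P0 alone.

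No member of the 9 tested passed the H3K27Ac test in any contrast, where 0.419% of 9300 starts were called at P14 and 0.602% at P21 (0.581% higher and 0.0215% lower, limma with Benjamini-Hochberg adjustment). At an unadjusted p under 0.05, 1 member was lower at P14, where 3.63% of all starts were, and 3 were lower at P21, where 7.34% were. Rlbp1 was the one at P14, with a log2 change of -1.34 at both stages (SE 0.53, limma adjusted p = 0.494 at P14 and 0.343 at P21). It entered the test through its 2 P0 peaks alone, like 0.968% of all starts tested, so it could only fall and this value is a description. Nfia (-1.55, SE 0.67) and Sox9 (-1.52, SE 0.65) joined it at P21. All 9 log2 changes were below 0 at both stages, as were 62.4% and 63.4% of all starts. Their medians were -1.18 and -1.14, beside -0.15 and -0.23. Both later libraries lay below both P0 libraries at 8 of the 9 at either stage, where 29.3% and 28.2% of all starts did so.

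The replicates differed in size, and with the same number of strongest peaks (17433) taken from each library, 7 of 8 members were lower at both stages, where 5.21% and 5.3% of 8509 starts were. That setting leaves these 7 at 0 in all 4 later libraries, so they entered it through P0 alone and could only fall. It turned the calls over all starts from mostly higher (39 of 39 at P14 and 54 of 56 at P21) to mostly lower (443 of 495 and 451 of 507).

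Over the genes and 20 kb on each side, H3K27Ac peaks took a smaller share of each library after P0. The 10 windows cover 1162 kb. They held 36 and 80 peaks at P0, 6 and 28 at P14 and 4 and 26 at P21, which is 20.5 and 27.3 of every 10000 peaks of the library at P0, 3.44 and 5.60 at P14, and 2.14 and 5.67 at P21. On this scale P0 did not overlap the later stages, and P14 and P21 overlapped each other. The same share over the windows of all genes was not computed, so this is a description of the members. Peaks covered 16191 and 56980 bp at P0 and between 2353 and 16510 bp later.

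The lower peak numbers after P0 were spread over the members. Dkk3 went from 8 and 18 peaks at P0 to 0 and 3 at P14 and at P21. Slc1a3 went from 4 and 15 to 0 and 2 and then 0 and 3. Rlbp1 went from 3 and 9 to none at P14 and 1 in a single library at P21. Glul (3 and 5 at P0, 2 and 3 at P21), Apoe (4 and 5, 1 and 4) and Kcnj10 (3 and 9, 1 and 6) kept more of theirs, and the Aqp4 window had no H3K27Ac peak except 1 in the wild-type P12 library.

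**Figure D3:**
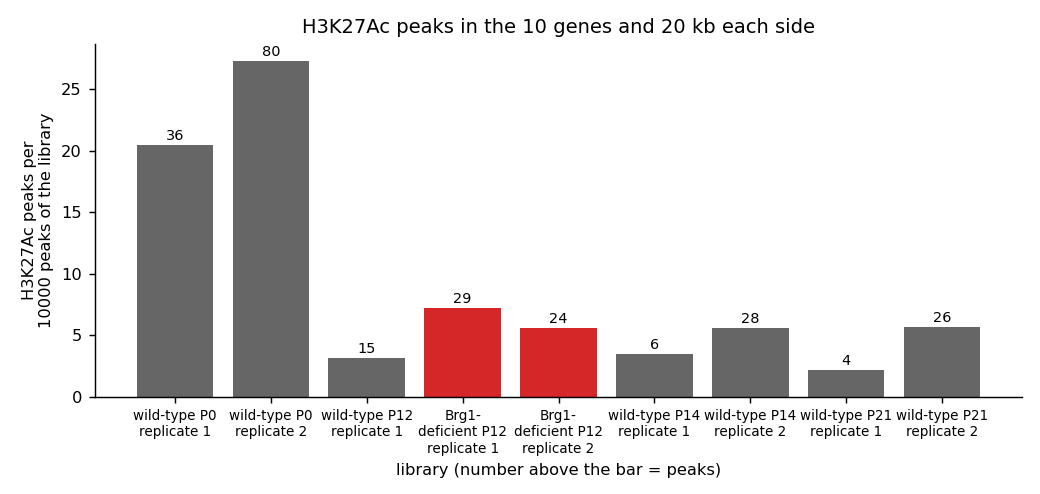
H3K27Ac peaks in the 10 genes and 20 kb on each side, as a share of the peaks of each library (bars, peaks per 10000, axis from 0), with the number of peaks above each bar. Grey bars are wild-type libraries in order of stage and red bars are Brg1-deficient P12 libraries. Both P0 bars stand above 20 and all later bars below 8.

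Merged over the wild-type libraries, these windows held 37 H3K27Ac regions of 33340 tested. None passed the limma test at either stage, where 0% of all regions did. At an unadjusted p under 0.05, 17 of 37 were lower and none higher at P14, and 17 were lower and 1 higher at P21, while 6.12% and 7.98% of all regions were lower at that level and 16.9% and 27.4% changed in either direction. Of the 17 lower regions at either stage, 10 had peaks at P0 alone, as did 3.7% of all regions tested, and could only fall. The median log2 change of the member regions was -1.34 at P14 and -1.40 at P21, and that of all regions was 0.34 and 0.50, the opposite sign.

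Several of the regions lie inside genes. The Dkk3 gene held 5 regions between 15.6 and 30.6 kb downstream of the start with peaks in both P0 libraries and none later, the farthest at chr7:119272120-119272667 (scaled heights 4.31 and 4.60). Slc1a3 had 1 in its body at chr15:8609287-8610754 (4.88 and 5.07) and another beyond its end at chr15:8581612-8582877 (6.03 and 7.73), both gone at P14 and P21. The strongest H3K27Ac near Rlbp1, at chr7:86536411-86537619 (13.3 and 6.31 at P0), lies at the start of the neighbouring gene Fanci, which is placed 5.33 kb away.

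A few regions did not fall. At Kcnj10 a region in the upstream flank, chr1:174254405-174254819, had no peak at P0 or P14 and scaled heights of 7.66 and 3.67 in the P21 libraries (log2 change 1.73, SE 0.49, limma adjusted p = 0.0726). This region, the one counted as higher at P21, entered the test through its P21 peaks alone. It could only rise, so its values are a description. Near Apoe, on the side of the neighbouring gene Tomm40, chr7:20301203-20302114 had a peak in all 6 libraries, with scaled heights between 3.09 and 4.64 at P0 and between 4.08 and 8.31 at P21, which overlap (log2 change 0.43, limma adjusted p = 0.516). These were the members' only regions with a peak in both P21 libraries besides the start of Glul.

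H3K27me3 spread over the starts of several members that were active at P0. The mark was read as islands, broad stretches called by the authors. Rlbp1, Vim and Nfia had no island over the start in either P0 library and an island in all 4 of the P14 and P21 libraries. This pattern held for 1.79% of all placed starts, and for 2.45% of the 7968 starts with both active marks in both P0 libraries, Vim and Nfia among them. Apoe and Dkk3 followed it in 3 of the 4 later libraries. Gain in at least 1 library of each later stage covered these 5 members and 4.98% of all starts.

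The Rlbp1 gene went from no coverage in either P0 library to 100%, 93.1%, 95.4% and 90.8% of its length, in islands of 15.6 to 21.4 kb. At Vim the islands spanned 4.0 to 6.2 kb and covered between 24.1% and 26.4% of the gene, and at Nfia they spanned 2.2 to 3.0 kb over the start. Sox9 carried islands at every stage. They covered 55.5% of the gene in both P0 libraries, 91.6% and 100% at P14 and 100% and 78.4% at P21. The covered share rose without overlap between P0 and the later stages. So did the total length of all islands in a library, from 96.6 and 114.1 Mb at P0 to between 126.6 and 213.3 Mb later. Gene coverage was read for the members alone, so these shares are a description. An island in all 6 libraries was seen at 13.3% of all starts.

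Glul, Slc1a3 and Aqp4 had no island over the start in any of the 6 libraries, as did 60.4% of all starts. Kcnj10 had a short island in 1 P0 and 1 P14 library and none at P21. The number of members with an island was 1 and 2 at P0, 6 and 6 at P14 and 5 and 6 at P21, while over all starts the shares were 22.3% and 27.6%, 20.9% and 29.3%, and 22.6% and 25.3%. Over all starts the share therefore overlapped between stages. The member counts at P0 lay below those of P14 and P21, which overlapped each other. The libraries held between 12188 and 30996 islands, fewest in replicate 1 of P0. No member lost islands that both P0 libraries had.

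**Figure D4:**
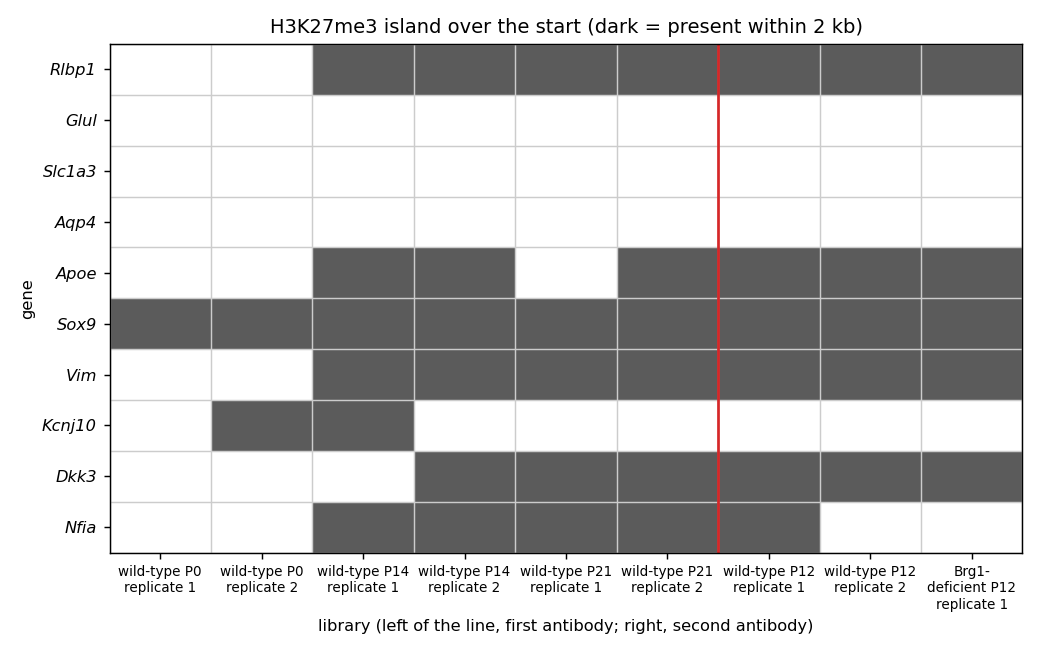
Presence (dark) or absence (white) of an H3K27me3 island within 2 kb of the start of each member (rows) in each library (columns). The red line parts the P0, P14 and P21 libraries from the P12 libraries, which were made with another antibody. Rlbp1, Vim and Nfia are white in both P0 columns and dark in all 4 of P14 and P21.

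At Nfia, where H3K4me3 at the placed start fell and H3K27me3 was gained, a cluster of peaks lies deep in the gene. Brg1 had 12 peaks between 164 and 197 kb downstream of the start, with its highest one in the gene at chr4:97444354-97445264 (height 10.1). There H3K4me3, H3K27Ac and H3K27me3 were all called in both P0 libraries. The H3K27Ac region around it, chr4:97443738-97445613, had scaled heights of 5.81 and 11.5 at P0 and kept 5.25 and 4.15 in replicate 2 of P14 and P21. Regions at 175.7 and 190.3 kb had no peak at P0 and peaks in replicate 2 alone later. Their scaled heights were 3.04 and 3.22 at P14 and 3.10 and 3.30 at P21. H3K4me3 of this cluster after P0 was not examined, so the fall at Nfia holds for the placed start alone.

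Brg1 occupied the members far beyond their starts. The 10 windows held 114 Brg1 peaks, 19 at the starts, 61 elsewhere in the genes and 34 in the flanks. Dkk3 had 31 of them, or 37.1 per 100 kb, more than 99.7% of the 16019 genes, whose median was 2.24. Nfia had 29 over a far longer gene (4.99 per 100 kb). Kcnj10 had 13, Slc1a3 12, Rlbp1 10, Apoe 9, Sox9 6, and Glul and Vim 2 each. No Brg1 peak lay in the Aqp4 window.

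Peaks differed in the marks they carried at P0. Both H3K4me3 and H3K27Ac in both P0 libraries were found at 18 Brg1 peaks, H3K4me3 alone by that measure at 16 and H3K27Ac alone at 9. Another 52 had neither mark in any P0 library, 15 of them at Dkk3 and 14 at Nfia. Of the 52, 1 overlapped an H3K27Ac peak at P14 or P21, and it is the Kcnj10 flank region described above (chr1:174254758-174255077, height 3.29). The same shares over all 50861 Brg1 peaks were not computed, so these counts are a description of the members. Long Brg1 peaks covered the starts of Sox9 (chr11:112642593-112647087, 4495 bp), Rlbp1 (chr7:86530957-86534664, 3708 bp) and Glul (chr1:155745776-155748922, 3147 bp). The longest lay inside Dkk3 (chr7:119285084-119291152, 6069 bp, height 8.97). It overlapped H3K27Ac in both P0 libraries, in no P14 library and in 1 P21 library. When the weaker 50% of all Brg1 peaks were left out, 68 peaks remained and 18 of them had neither mark.

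**Figure D5:**
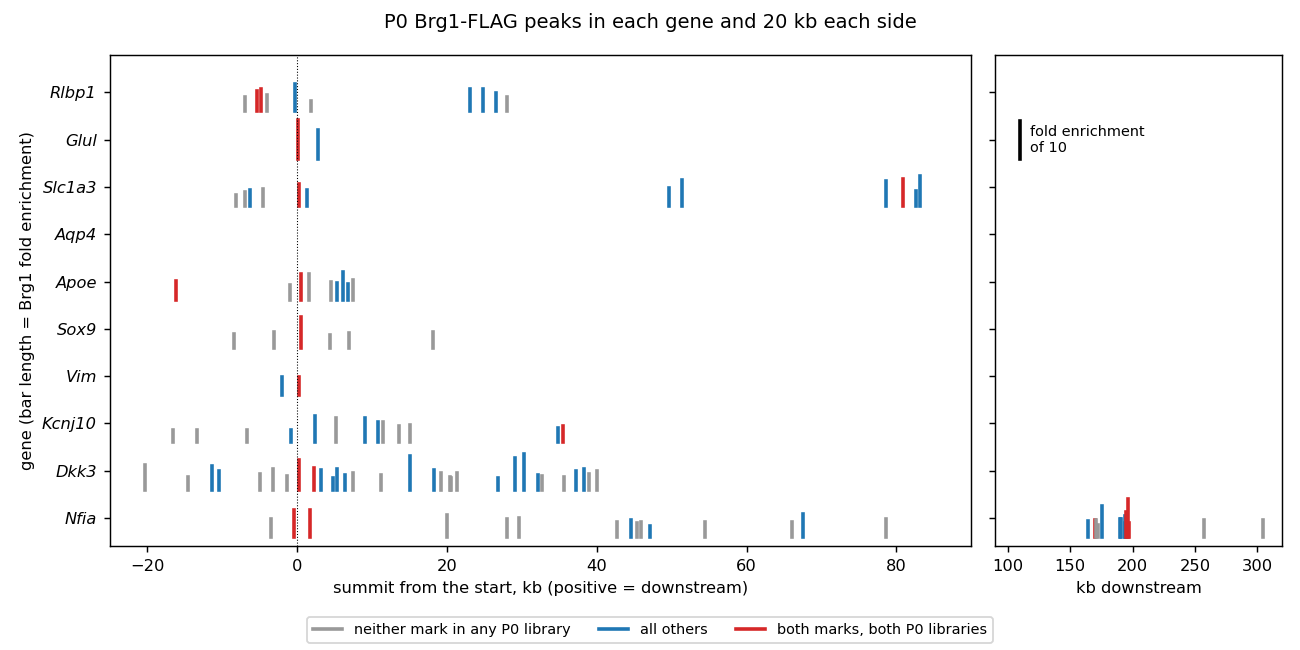
P0 Brg1-FLAG peaks of each member, drawn at the distance of the summit from the placed start in kb (horizontal axis, positive is downstream, with the far part of Nfia in the right panel) and with a length in proportion to the fold enrichment. Red bars overlap H3K4me3 and H3K27Ac in both P0 libraries, grey bars overlap neither mark, and blue bars are all others. Dkk3 and Nfia have the most peaks, and Aqp4 has none.

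In Brg1-deficient retinae at P12, H3K27Ac was called at more members than in the wild-type library. H3K27Ac peaks were present at 4 members in the wild-type library and at 8 in each Brg1-deficient library, against 54.7%, 56.9% and 56.7% of all starts, although the wild-type library had more peaks in all (47404 against 40465 and 42887). The added members were Sox9, Dkk3, Kcnj10 and Nfia. At Sox9 the heights were 0 in wild type and 4.96 and 4.56 in Brg1-deficient retinae, and at Dkk3 they were 0, 5.85 and 4.80. Kcnj10 had 0, 4.07 and 5.11, and Nfia had 0, 3.13 and 2.39.

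On scaled log2 heights Sox9 (1.08 and 1.03) and Dkk3 (1.21 and 1.07) exceeded a 2-fold difference in both Brg1-deficient libraries, as did 1.61% of 9479 starts. No member was lower by as much (0.865% of starts). Sox9, Dkk3, Kcnj10 and Nfia had no wild-type peak, so they entered through Brg1-deficient libraries alone and could only be higher. The scaled heights of Sox9 and Dkk3, between 4.32 and 5.41, lie close to the pseudocount of 4.13, which therefore decided their calls. Glul stood at 7.85 in wild type and 14.1 and 14.8 in Brg1-deficient retinae (0.39 and 0.47), Vim at 3.14, 4.83 and 4.12, and Apoe at 2.56, 6.43 and 4.28. Slc1a3 was the exception, at 6.43, 5.44 and 4.28 (-0.32 and -0.49). The members' median differences were 0.64 and 0.55, beside 0.01 and 0.01 over all starts, and include the members that could only be higher. Over the gene windows the wild-type library held 15 H3K27Ac peaks and the Brg1-deficient libraries 29 and 24.

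For H3K4me3 the heights of Glul were 50.4 in wild type and 41.1 in Brg1-deficient retinae, those of Sox9 30.5 and 18.6, of Vim 24.4 and 14.5 and of Kcnj10 33.0 and 29.0. After scaling, these and the other members differed by at most 0.33 from wild type on the log2 scale with the exception of Slc1a3, which went from 38.6 to 9.54 (-0.99). With the pseudocount of 8.07 added, no member passed a 2-fold difference (0.841% of 10104 starts were higher and 0.762% lower). Without scaling 1 member was lower. Before that addition the scaled heights of Slc1a3 were 31.4 in wild type and 11.7 in the Brg1-deficient library. These lie more than 2-fold apart, so the pseudocount decided that call. The H3K27me3 islands of Rlbp1, Apoe, Sox9, Vim and Dkk3 were present in both wild-type and the Brg1-deficient library, and that of Nfia in 1 wild-type library alone.

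With 1 wild-type library per active mark the genotypes could not be tested, and how far wild-type libraries differ at P12 is not known. The wild-type P14 libraries show how far a pair of replicates can lie apart, but they held 17433 and 50005 H3K27Ac peaks. The P12 libraries were closer in size (47404 in wild type, 40465 and 42887 in Brg1-deficient retinae). The P14 pair is therefore no measure of the spread at P12. In replicate 2 of P14 the H3K27Ac heights of Sox9, Dkk3, Kcnj10 and Nfia were 3.46, 2.28, 5.78 and 3.91, against 0 in replicate 1, so replicates of 1 genotype also differed in whether a peak was called.

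H3K4me3 also fell at other genes of Müller glia and gliogenesis. Of 30 listed, 22 could be placed and 18 were tested. From P0 to P14, 5 fell and 0 rose, where 3.94% of all starts fell and 0.964% rose. From P0 to P21, 8 fell and 0 rose, where 8.31% fell and 1.1% rose. Those that fell at P21 included Cd44, a hyaluronan receptor (-1.54, SE 0.23, limma adjusted p = 0.000484), Sox2, a progenitor and glial transcription factor (-1.47, SE 0.32, limma adjusted p = 0.00809), and Notch1, the receptor that holds progenitor cells undifferentiated (-1.49, SE 0.32, limma adjusted p = 0.00791). The 10 that did not pass at P21 included Dbi (-0.02), Acsl3 (0.285) and Hes5 (-0.38). For H3K27Ac 0 of 18 passed, with 3 and 4 at an unadjusted p under 0.05. Tgfb2 was the only one that gained an H3K27me3 island in all 4 later libraries, and Sox2, Lhx2, Nfix, Id3, Cd44 and Timp3 had one in all 6.

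Genes of other cell types moved with the stages in the same libraries. All 6 rod genes tested rose in H3K4me3 at both stages, where 0.964% and 1.1% of all starts rose. In H3K27Ac 3 and then 4 of them rose (limma), where 0.419% and 0.581% of all starts did. The summed H3K27Ac height of the rod genes was 3.84 and 4.25 at P0 and between 85.3 and 114.6 at P14 and P21. The leading ones at P21 were Sag, rod arrestin (log2 change 3.31, SE 0.39, limma adjusted p = 0.000963), and Nrl, the rod transcription factor (3.04, SE 0.34, limma adjusted p = 0.000902). Sag and Nrl had no peak at P0. They entered the test through later libraries alone and could only rise, so their values are a description. Of 5 placed progenitor genes, 2 fell in H3K4me3 at P14 and 3 at P21, where 3.94% and 8.31% of all starts fell. The summed H3K27Ac height of the progenitor genes went from 28.4 and 37.7 at P0 to between 0 and 9.75. The members' own sum was 56.9 and 83.4 at P0, 6.60 and 44.7 at P14 and 5.78 and 30.7 at P21. Of 3 astrocyte genes tested for H3K4me3, 1 rose and 2 fell, and 1 endothelial gene tested did not pass. The part of cell makeup in the members' changes was not tested.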

How the data were processed

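ChIP-Seq libraries of mouse retinae were grouped by mark, genotype and stage as the labels give them. For each H3K27Ac, H3K4me3 and Brg1 library the authors deposited peaks called on that library alone, with the fold enrichment at the summit (a ratio over background), the −log10 p-value and −log10 q-value, a score that was not used, and the summit position. For H3K27me3 they deposited islands with a score. The submitters' processing notes name CASAVA, BWA 0.5.9-r26, Picard 1.65, SAMtools, R 2.14.0, MACS2 2.0.9, SICER 1.1, bedtools 2.17.0 and the build mm9. No scaling of fold enrichment between libraries was stated, and the fold enrichment depends on the depth of its library, which is unknown. Input libraries were not analysed here.

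Starts of coding genes in RefSeq GRCm38 were moved by the local offset that put most other coding starts within 5 Mb within 1 kb of H3K4me3 peaks of both P0 libraries. Of 21900 coding genes, 17226 gave an offset and 16019 had one at least 1.5 times better than the next and were kept. An offset from within 2 Mb was used for 275 genes where it was the clearer one, Slc1a3 among them (8 of 20 starts against 5 for the next offset). After placement 61.6% of starts had a P0 H3K4me3 peak in both libraries within 1 kb. The Sox9, Aqp4 and Dkk3 strands were entered by hand. All coordinates of peaks are mm9 as deposited.

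The height at a start was the highest fold enrichment within 2 kb, or 0. H3K27Ac and Brg1 peaks were also taken over each gene and 20 kb on each side. Heights were scaled to a common median over features with a peak in every library. Starts or merged regions with a peak in at least 2 of the 6 wild-type P0, P14 and P21 libraries were tested with limma 3.58.1 (lmFit, eBayes with a trend, R 4.3.3) on log2(height + pseudocount), adjusted after Benjamini-Hochberg at 0.05 over 10161 starts for H3K4me3, 9300 for H3K27Ac and 33340 regions. As pseudocount the 5th percentile of all heights above 0 was taken (7.49, 3.37 and 2.33), so that log2 changes of low features are understated. p-values measure the spread between libraries, which may be technical. At P12 heights were set side by side with a pseudocount of 4.13 (H3K27Ac) and 8.07 (H3K4me3). Tested on simulated data from P0 to P21, the H3K4me3 fit recovered 74 of 100 starts changed by 2 log2 units and 99 of 100 changed by 5, the H3K27Ac fit 36 and 83, and the region fit 1 and 29.

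All 10 members were named, with counts for each marker list, the leading H3K27Ac changes of other lists, the coding neighbours in each window and the 5 genes most like the members. Other glial genes given by name, and the individual regions described, were picked after their values were seen. The members and lists were chosen with earlier results of these data known. Alternatives were other scalings, filters, windows, offsets, numbers of peaks and libraries. The scripts used Python 3.11.15, numpy 2.4.6, pandas 2.3.3 and matplotlib 3.10.9.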

Additional observations from a re-analysis of the deposited data

How the results depend on the processing

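Changing 1 choice at a time, counts over all features and over the members stayed within 1.5 times in 244 recomputations and did not in 90. Single genes kept direction and side of the threshold in 542, gained a call in 21, lost it in 22 and turned direction in 9. For H3K4me3 from P0 to P14, 498 starts were called, and 263 with a peak in every library, 286 with a pseudocount of 1, 182 without the trend and 120 to 582 when 1 library was left out. The 3 members became 1 without scaling, 0 with a pseudocount of 1 and 1 to 3 when 1 library was left out. From P0 to P21, 956 became 522 without scaling, 551 with a pseudocount of 1, 633 without the trend and 329 to 891 when 1 library was left out, and the 4 members became 2 without scaling and 1 to 4. From P14 to P21, the 1 call became 0 with a peak in every library or a pseudocount of 1, 8 without scaling and 0 to 6 when 1 library was left out.

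At Glul the P14 change in H3K4me3 was below 0 without scaling (-0.14), without replicate 2 of P0 (-0.24) and without replicate 3 of P14 (-0.20), with 0.25 as the highest value when 1 library was left out. For Kcnj10 the change in H3K27Ac was above 0 without replicate 2 of P0 (0.48 at P14 and 0.55 at P21, against lowest values of -1.19 and -1.12 when 1 library was left out), without replicate 1 of P14 (0.17) or of P21 (0.30), and with the larger library alone at P14 and P21 (0.21 and 0.32), a setting chosen after seeing the data, as were the offset from 5 Mb only and the highest peak at any listed start. None of these passed the test.

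For H3K27Ac starts from P0 to P14, 39 calls became 3 without scaling, 2 with a pseudocount of 1, 0 without the trend, 495 with equal numbers of strongest peaks, 9 with peaks within 5 kb, 0 with the larger library alone and 0 to 86 when 1 library was left out. From P0 to P21, 56 became 1, 7, 0, 507, 34, 341 and 0 to 860 in the same order, and from P14 to P21 there were 0 to 63. The members' 0 became 7 with equal numbers of strongest peaks at both stages. Among regions, 0 calls from P0 to P14 became 79 with a peak in every library, 953 with no filter, 3472 with equal numbers of strongest peaks and 0 to 817 when 1 library was left out. From P0 to P21 they became 227, 2658, 5526 and 0 to 7193, and the members' 0 became 18 with equal numbers (18 at P14 too) and 0 to 16 when 1 library was left out. From P14 to P21 equal numbers gave 726. Without the weaker 50% of Brg1 peaks the members had 68, of which 18 had neither mark. At P12, with 1 Brg1-deficient library left out, 295 to 314 starts were higher in H3K27Ac (153 with both) and 184 to 187 lower (82 with both). Without scaling 34 were lower, and for H3K4me3 6 were higher (85), 809 lower (77) and 1 member lower.

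The replicate numbers were not taken to pair the samples in the main fit. Deviations at number 2 correlated by 0.13 for H3K4me3 (P0 with P21) and by 0.14 and 0.06 for H3K27Ac (P0 with P14 and with P21). For H3K27Ac at P14 with P21 the correlation was higher, at 0.48, and replicate 1 was the smaller library at both of these stages. With the replicate block, 1522 starts and 6 members were called for H3K4me3 from P0 to P21, where Slc1a3 (limma adjusted p = 0.00878) and Apoe (0.0351) joined the 4 members called without it. For H3K27Ac 202 and 284 starts were called at P14 and P21, with 1 member each (Rlbp1, tested through its P0 peaks alone), and 7627 regions from P0 to P21 with 16 member regions. The block could not be fitted for H3K4me3 at P14, whose libraries share only number 2 with those of the other stages. Scaling moved the median of all H3K4me3 starts at P14 from -0.16 to -0.03, of H3K27Ac starts from -0.02 to -0.15 at P14 and from -0.48 to -0.23 at P21, and of regions from 0.44 to 0.34 and from 0.22 to 0.50. The cause of these differences was not tested. Depth is unknown and limits which weak peaks were called.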

Other observations

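The 5 coding genes outside the list whose H3K27Ac at the start was most like the members' mean profile over the 9 H3K27Ac libraries were Prc1 (Pearson r = 0.98), Chst3 (0.97), Timm8a1 (0.97), Smo (0.97) and Col4a2 (0.96), out of 9585 starts. These r values are a description over 9 libraries of unequal size, and the likeness includes the zeros of the smaller libraries. Of the members, Dkk3 (0.97), Nfia (0.92), Sox9 (0.91) and Apoe (0.91) were closest to that mean, and Glul (0.63) and Kcnj10 (0.66) were farthest, each being part of it.

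Of the coding genes whose starts lie in the members' windows, Fanci near Rlbp1 and Tomm40 near Apoe had H3K4me3 and H3K27Ac in both P0 libraries and a Brg1 peak (heights 5.95 and 5.06). Kcnj9, 11.9 kb from Kcnj10, had H3K4me3 in 1 P0 library and a Brg1 peak of 3.35. Teddm1a near Glul and Apoc2, Apoc4 and Gm44805 near Apoe had no peak of the 3. Kcnj10 carried H3K4me3 at its far end in all 8 H3K4me3 libraries too, with H3K27Ac there in 6 of the H3K27Ac libraries.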
